A study of Arabidopsis thaliana with 9 samples.

Results

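Glutathione transferases (GSTs) of the phi (GSTF) and tau (GSTU) classes were described in heated Arabidopsis thaliana seedlings that overexpress or lack SR45a, a serine/arginine-rich protein of pre-mRNA splicing. The set holds 10 genes, listed by locus out of 27218 genes in the deposited gene table: GSTF2, GSTF6, GSTF7 and GSTF8 of the phi class, and GSTU1, GSTU4, GSTU5, GSTU19, GSTU24 and GSTU25 of the tau class. The members were chosen by their locus names with the gene counts of these same libraries, and the differences between genotypes in them, already known. Their differences between genotypes are therefore given as a description, and no test of them is read. Another 30 phi and tau genes in the table were not part of the set and are given for comparison. They are what that choice left, so a gap between them and the set is not read.

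The libraries fall into 3 groups of 3, made from seedlings: SR45a-1a-OE, which overexpresses the splice variant SR45a-1a; the sr45a mutant; and wild type (WT). All were grown for 2 weeks on ½MS medium in long days and then held at 45 °C for 3 h, so the response of a gene to heat itself was not measured. The promoter of the transgene, the mutant allele, and whether the 3 SR45a-1a-OE libraries are separate lines are details that the sources used here do not give. SR45a stood at 1170, 1100 and 1010 CPM (gene counts scaled to library size) in SR45a-1a-OE, at 1.90, 4.55 and 7.27 CPM in sr45a, and at 433, 401 and 420 CPM in WT, which follows the labels.

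GSTs join the tripeptide glutathione to reactive, often toxic molecules, and transporters of the ABCC family then carry the conjugates into the vacuole. In plants the phi and tau classes are the largest, and many of their genes are induced by herbicides, pathogens, oxylipins and oxidative stress, in part through TGA bZIP factors that bind TGACG elements. Several members also bind or convert plant metabolites other than toxins.

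Depth was 18036195 to 21864604 gene counts per library, and CPM rest on that total after TMM scaling (factors 0.9349 to 1.048). Fold changes come from an edgeR quasi-likelihood fit of all 9 libraries over the 20103 genes that passed the filter on low counts; a gene is called at a Benjamini-Hochberg adjusted p under 0.05. All 10 GST genes passed that filter. Replicate 3 of SR45a-1a-OE and replicate 3 of sr45a lay away from the other 2 libraries of each group along principal component 1 (36.6% of the variance), at −16.21 against −48.28 and −47.02 in SR45a-1a-OE, and at −4.70 against 25.35 and 22.24 in sr45a. Counts of called genes are therefore given with them and, where the count changes, also without both replicates 3. Without them edgeR called 22.3% of 20271 tested genes in SR45a-1a-OE against WT, 1.80% in sr45a against WT and 20.5% in SR45a-1a-OE against sr45a. Genes named only because they were called in that smaller fit were named after their values were seen. Counts at an unadjusted p under 0.05, or by DESeq2 or limma, are given without a share over all tested genes. Nothing is read from them. The labels do not say whether replicates came from separate cultures, so the p-values of the other gene lists measure only the spread between these samples, which may be technical. Those lists were also chosen with earlier results of these data known, so counts of their calls are a description.

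Higher levels than in WT were found in both altered genotypes for most of the set. In SR45a-1a-OE against WT 6 of the 10 genes were called higher and none lower, where 6.76% of all tested genes were called higher and 8.59% lower. In sr45a against WT 5 were called higher and none lower, against 0.861% and 0.761% of all tested genes (1.62% in either direction). Because the members were chosen with these contrasts known, nothing is read from these counts. Both comparisons share the WT libraries. GSTF7, GSTU19, GSTU24 and GSTU25 passed in both, GSTU1 and GSTU4 in SR45a-1a-OE and GSTF6 in sr45a. Of the last 3 genes, GSTF6 was also called between SR45a-1a-OE and sr45a, and GSTU1 and GSTU4 were not.

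The median log2 fold change of the 10 genes was 0.80 in SR45a-1a-OE against WT, beside 0.01 over all tested genes, and 0.84 in sr45a against WT. The single genes ranged between −0.13 and 2.29 in SR45a-1a-OE and between −0.13 and 3.08 in sr45a. Without overlap between the groups, 5 genes were higher in SR45a-1a-OE (16.9% of all tested genes) and 9 in sr45a (11.3% of all tested genes, and 24.1% in either direction), and none was lower; GSTU5 alone overlapped in sr45a. In SR45a-1a-OE against sr45a 1 of the 10, GSTF6, was called lower (4.45% of all tested genes) and none higher (2.81%), with a median of −0.14. Between these genotypes GSTF2, GSTF6 and GSTU24 were lower in every SR45a-1a-OE library than in every sr45a library (13.4% of all tested genes), and GSTU1 was higher in every one (11.8%, and 25.2% in either direction).

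**Figure D1:**
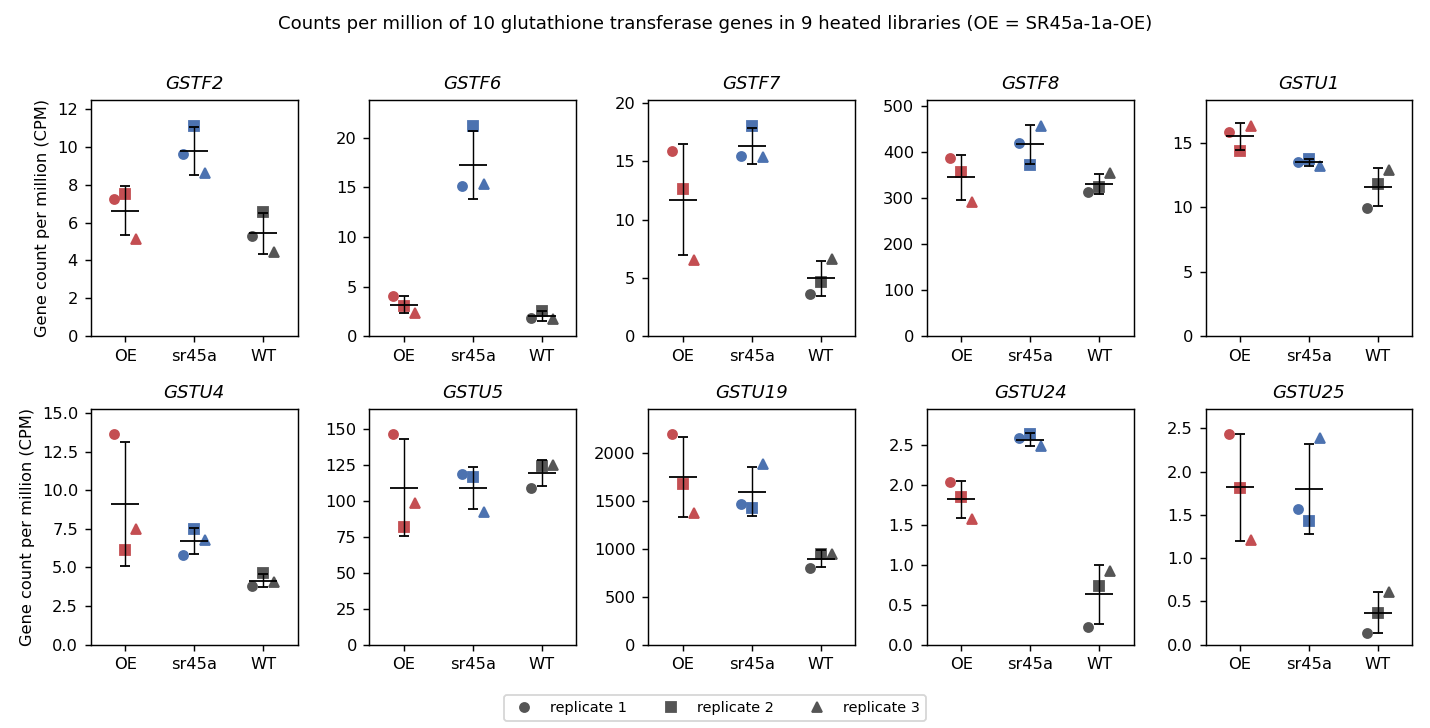
Scaled gene counts (CPM) of the 10 GST genes in each library, for SR45a-1a-OE (OE), sr45a and WT; symbols mark the replicates, the horizontal line is the mean and the bar its SD (n = 3 libraries). GSTF6 reached 15.1 to 21.2 CPM in sr45a, GSTU19 lay above all WT libraries in both altered genotypes, and GSTU5 overlapped between all 3.

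Leaving out single libraries changed these counts. The share of all tested genes called in those fits is not given here, so nothing is read from the changes. The 6 genes called in SR45a-1a-OE became 2 without its replicate 1, 3 without WT replicate 1 and 3 without WT replicate 2. The 5 called in sr45a became 2, 1 and 3 without its replicates 1, 2 and 3, 2 without WT replicate 1 and 1 without WT replicate 2. Without replicate 3 of both SR45a-1a-OE and sr45a the counts were again 6 and 5, with GSTF6 in place of GSTU1 in SR45a-1a-OE and GSTF2 in place of GSTU25 in sr45a. Of all tested genes, 10.7% and 1.08% were called higher in that fit. Under all 18 alternatives GSTU19 and GSTU25 stayed called in SR45a-1a-OE against WT, and GSTF6 in sr45a against WT and in SR45a-1a-OE against sr45a.

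**Figure D2:**
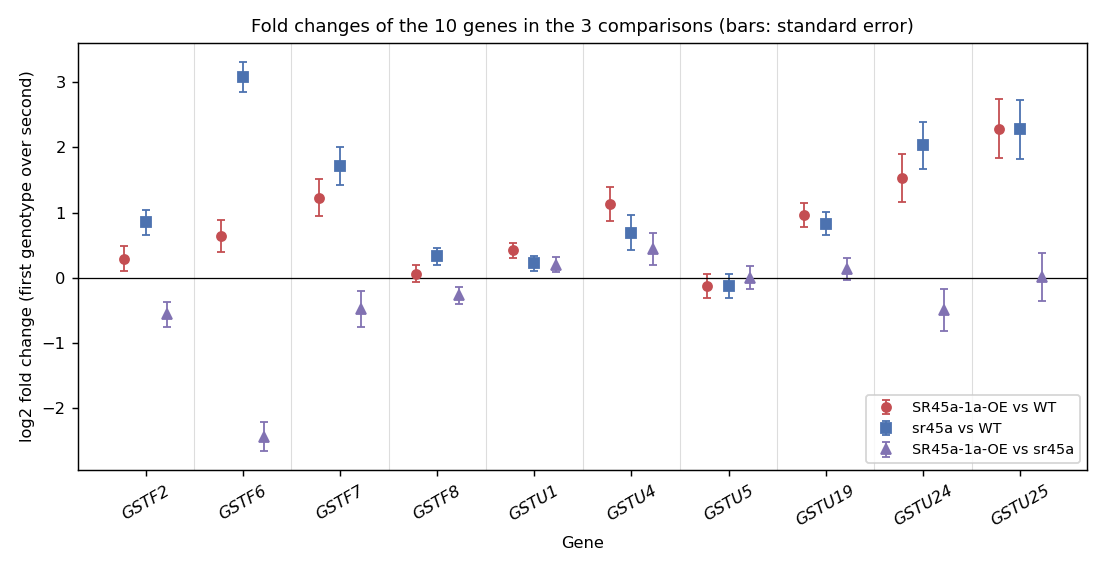
Fitted log2 fold change of each of the 10 genes in the 3 comparisons, with its standard error. GSTF6 stands out with 3.08 in sr45a over WT and −2.44 in SR45a-1a-OE over sr45a, while GSTU5 lies near 0 throughout.

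The phi-class genes GSTF6 and GSTF7 are neighbours, 1107 bp apart on the minus strand of chromosome 1. GSTF6 (AT1G02930, 661088–662475) conjugates glutathione to an indole intermediate of camalexin, the main Arabidopsis phytoalexin. GSTF7 (AT1G02920, 658578–659980) is known as a salicylate- and oxidant-responsive member. Positions here and below are in TAIR10.1. Their coding sequences are 94.29% identical, which is the highest identity among the 45 pairs within the set (the lowest is 43.32%). The 150-base coding stretch around their longest identical run of 116 bases is shown because it is where reads of the pair are hardest to assign. It covers coding positions 293–442 of GSTF6 and 296–445 of GSTF7, counted from 1 at the start codon, and the capitals mark the 2 bases that differ:
GSTF6: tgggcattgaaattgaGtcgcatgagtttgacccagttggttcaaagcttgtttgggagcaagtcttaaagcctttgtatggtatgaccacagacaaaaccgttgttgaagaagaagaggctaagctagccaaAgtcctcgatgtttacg
GSTF7: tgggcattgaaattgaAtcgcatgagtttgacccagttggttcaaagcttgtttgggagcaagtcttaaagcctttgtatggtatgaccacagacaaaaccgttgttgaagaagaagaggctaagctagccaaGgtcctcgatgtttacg

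Over the whole aligned coding sequence of 630 columns the pair differ by 33 substitutions and 3 gap columns. Of 75-base windows of the exons, 53 of 1112 in GSTF6 (4.77%) and 53 of 1139 in GSTF7 (4.65%) were found in the other gene, and at 150 bases, the length of 1 read, none was. No other gene of the set shared a 75-base window with another GST.

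GSTF6 had the largest fold change of the set, in sr45a over WT. It stood at 4.08, 3.10 and 2.37 CPM in SR45a-1a-OE, at 15.1, 21.2 and 15.4 CPM in sr45a, and at 1.82, 2.57 and 1.72 CPM in WT. All sr45a libraries lay above all others, and SR45a-1a-OE overlapped with WT. The ratio of means was 8.47 for sr45a over WT, with a log2 fold change of 3.08 (SE 0.23). SR45a-1a-OE over WT gave 0.64 (SE 0.25), and SR45a-1a-OE over sr45a gave −2.44 (SE 0.22). Without both replicates 3 it was 3.15 in sr45a over WT, 0.81 in SR45a-1a-OE over WT, which was then called, and −2.34 in SR45a-1a-OE over sr45a.

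GSTF7 was higher than WT in sr45a and, with overlap, in SR45a-1a-OE. It stood at 15.9, 12.6 and 6.54 CPM in SR45a-1a-OE, at 15.4, 18.05 and 15.4 CPM in sr45a, and 3.63, 4.69 and 6.60 CPM in WT. SR45a-1a-OE replicate 3 lay within the range of WT. The fitted log2 fold change was 1.23 (SE 0.29) in SR45a-1a-OE over WT, 1.71 (SE 0.29) in sr45a over WT and −0.48 (SE 0.27) in SR45a-1a-OE over sr45a. Without both replicates 3 these values were 1.52, 1.75 and −0.23. The call was lost in SR45a-1a-OE without its replicate 1, and in sr45a without its replicate 2; leaving out WT replicate 1 or 2 ended both.

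The pair did not keep 1 proportion. GSTF6 counts per GSTF7 count were 0.256, 0.245 and 0.362 in SR45a-1a-OE, 0.979, 1.18 and 1.0 in sr45a, and 0.5, 0.549 and 0.261 in WT. In sr45a the genes were thus about level, while GSTF7 led in the other genotypes. GSTF6 and GSTF7 lie 1.59 and 1.60 Mb from SR45a on the same chromosome, and whether sequence linked to the mutation has a part in their level was not tested.

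Markers of seed and germination were, like GSTF6, higher in every sr45a library than in every WT library. Their list was chosen with earlier results of these data known, so nothing is read from the counts below. All 8 of the listed markers rose in sr45a against WT (0.861% of all tested genes did), 1 of 8, OLEO1, rose in SR45a-1a-OE against WT (6.76%), and 7 fell in SR45a-1a-OE against sr45a (4.45%). Their summed level was 14.37–35.3 CPM in SR45a-1a-OE, 137.2–301.4 CPM in sr45a and 11.4–18.96 CPM in WT. SESA1, SESA2 and CRU2 were at 0 in WT, and CRU2 was at 0 in SR45a-1a-OE. In sr45a the CRU2 call ended without its replicate 1 or 2 or any 1 WT library, and that of CRU3 without WT replicate 2. The CRU2 call also ended with the replicate number as a block. The OLEO1 call in SR45a-1a-OE was kept in 9 of the 16 alternatives that gave it a value and ended without SR45a-1a-OE replicate 1 or 2, sr45a replicate 2 or any 1 WT library, and with limma on FPKM plus 1. When both replicates 3 were left out, CRA1, CRU3 and OLEO1 rose in SR45a-1a-OE against WT (10.7% of all tested genes). All 8 then fell in SR45a-1a-OE against sr45a (10.4%). Seedlings were sequenced in bulk, so more cells of a type and more RNA per cell cannot be told apart. The part of these tissues in the level of GSTF6 was not tested.

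The 250 bases before the annotated start are shown for GSTF7, for the GSTU24 and GSTU25 pair, which were other low genes with large fold changes, and for GSTU1, the member with 2 TGACG elements. They are in TAIR10.1, read 5′ to 3′ on the strand of the gene, with TGACG (core of the TGA factor element) and TTGAC (core of the WRKY element) in capitals, in either orientation:
GSTF7, chr1:659981-660230, minus strand: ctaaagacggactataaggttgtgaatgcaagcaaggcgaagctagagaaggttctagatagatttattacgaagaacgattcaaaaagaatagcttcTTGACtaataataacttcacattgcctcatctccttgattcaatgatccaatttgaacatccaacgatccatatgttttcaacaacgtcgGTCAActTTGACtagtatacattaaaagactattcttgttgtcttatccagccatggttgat
GSTU24, chr1:5869293-5869542, plus strand: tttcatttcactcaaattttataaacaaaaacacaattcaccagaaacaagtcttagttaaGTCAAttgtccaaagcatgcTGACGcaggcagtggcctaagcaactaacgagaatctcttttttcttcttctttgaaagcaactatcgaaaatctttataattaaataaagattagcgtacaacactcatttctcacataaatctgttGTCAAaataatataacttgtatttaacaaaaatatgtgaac
GSTU25, chr1:5871774-5872023, plus strand: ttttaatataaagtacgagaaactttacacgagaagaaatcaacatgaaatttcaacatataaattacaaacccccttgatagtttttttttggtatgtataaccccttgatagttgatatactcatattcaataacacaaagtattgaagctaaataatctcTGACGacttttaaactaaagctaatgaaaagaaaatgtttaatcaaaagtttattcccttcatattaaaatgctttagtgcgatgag
GSTU1, chr2:12632539-12632788, minus strand: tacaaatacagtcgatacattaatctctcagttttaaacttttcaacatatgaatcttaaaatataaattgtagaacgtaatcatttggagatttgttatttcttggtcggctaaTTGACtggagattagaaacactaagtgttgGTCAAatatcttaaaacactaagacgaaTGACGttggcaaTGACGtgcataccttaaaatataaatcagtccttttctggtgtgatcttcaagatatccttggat

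TGACG was found on either strand in 5 of the 10 windows (GSTF8, GSTU1, GSTU5, GSTU24 and GSTU25) and in 18.58% of the same windows of 27438 genes. GSTU1 held 2 of them, 77 and 65 bases before the start; 3.21% of all windows held at least 2. In GSTU24 it lay 169 and in GSTU25 87 bases before the start. TTGAC was in 7 of 10 windows, against 44.93% of all, and GSTF7 held 3. The heat shock element unit GAANNTTC was in 2 (GSTF7 and GSTU25), against 9.55% of all. In GSTU5 a TGACG and a TTGAC overlap. These are matches of letters, and their use was not measured.

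GSTF2 (AT4G02520, minus strand of chromosome 4, 1110343–1112033) binds auxin, flavonoids and camalexin in vitro and is often used as a marker of ethylene and oxidant responses. Its gene count stood at 7.26, 7.50 and 5.15 CPM in SR45a-1a-OE, at 9.62, 11.1 and 8.61 CPM in sr45a, and 5.27, 6.57 and 4.46 CPM in WT. Every sr45a library exceeded every other library, and SR45a-1a-OE overlapped with WT. The log2 fold change was 0.29 (SE 0.19) in SR45a-1a-OE over WT, 0.85 (SE 0.19) in sr45a over WT and −0.56 (SE 0.19) in SR45a-1a-OE over sr45a. The sr45a difference was not called in the fit of all 9 libraries but was in 8 of the 18 alternatives, with log2 fold changes of 0.72 to 1.0 over all of them. The coding sequence nearest to GSTF2, that of GSTF3 (94.52% identical), belongs to a gene that did not pass the filter on low counts.

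The gene count of GSTF2 was low beside its transcript estimate. Of its 1471 exonic bases, 890 (60.5%) overlap exons of TOC159 (AT4G02510, 1104429–1111784), a chloroplast import receptor gene on the opposite strand. The deposited transcript estimate of GSTF2 was 63.7 to 94.4 times the gene count over the 9 libraries. The median ratio in 3183 single-transcript genes of at least 500 counts was 3.909. The sources used here do not say how the gene counts treat overlapping genes. On the transcript estimates, scaled to CPM of their own table, GSTF2 stood at 118.3 ± 14.8 in SR45a-1a-OE, 178.9 ± 6.05 in sr45a and 107.0 ± 14.3 in WT (SD, n = 3). The order of the genotypes was the same as by gene count, sr45a again lay above every other library, and the log2 ratios of means were 0.14 for SR45a-1a-OE over WT, 0.74 for sr45a over WT and −0.60 for SR45a-1a-OE over sr45a.

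GSTF8 (AT2G47730, plus strand of chromosome 2, 19556326–19559485) encodes a chloroplast-targeted enzyme whose promoter has long served as a reporter of early stress responses. It stood at 387.3, 356.1 and 291.7 CPM in SR45a-1a-OE, at 420.3, 372.6 and 457.3 CPM in sr45a, and 313.6, 325.0 and 355.0 CPM in WT. The sr45a libraries lay above WT, and SR45a-1a-OE spanned the WT range. Fitted log2 fold changes were 0.06 (SE 0.13), 0.33 (SE 0.13) and −0.27 (SE 0.13) in SR45a-1a-OE over WT, sr45a over WT and SR45a-1a-OE over sr45a, and none was called in any alternative. Of its 2395 exonic bases, 219 (9.14%) overlap exons of AT2G47720 on the same strand. On the transcript estimates GSTF8 averaged 235.2 ± 47.2 CPM in SR45a-1a-OE, 344.6 ± 31.9 CPM in sr45a and 229.8 ± 45.4 CPM in WT (SD, n = 3), with sr45a above every other library.

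GSTF8 is the only gene of the set with 2 annotated transcripts in the deposited transcript table, and their shares jumped between all and nothing. AT2G47730.1 took 99.9% of the GSTF8 estimate in SR45a-1a-OE replicate 2 and in sr45a replicate 1 and was estimated at 0 in the other 7 libraries. AT2G47730.2 took the rest. Since AT2G47730.1 did not pass the filter, no usage test over all 9 libraries could be made for the set. Another 7888 genes kept at least 2 transcripts past that filter, and their usage was not tested. In the leave-one-out fits in which it passed, edgeR's diffSpliceDGE gave GSTF8 adjusted p-values of 0.927 to 1. Because the shares jump between all and nothing within a genotype, these values cannot tell whether usage differed between genotypes.

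The tau-class genes GSTU5, GSTU4 and GSTU1 lie on the minus strand of chromosome 2 within a run of tau genes, at 12624403–12625790, 12626478–12627891 and 12631341–12632538. GSTU4 and GSTU5 are 687 bp apart, GSTU1 and GSTU4 3449 bp, with GSTU3 and GSTU2 between them. GSTU1 and GSTU4 are 83.85% identical in coding sequence. Neighbours in this run did not show 1 pattern.

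GSTU4 (AT2G29460) stood at 13.7, 6.15 and 7.47 CPM in SR45a-1a-OE, at 5.83, 7.52 and 6.77 CPM in sr45a, and at 3.77, 4.64 and 4.04 CPM in WT. Both altered genotypes lay above every WT library. The log2 fold change was 1.13 (SE 0.26) in SR45a-1a-OE over WT, 0.69 (SE 0.27) in sr45a over WT and 0.44 (SE 0.25) in SR45a-1a-OE over sr45a. SR45a-1a-OE replicate 1 was the highest of its group, and without it the value over WT was 0.73 and no longer called; leaving out WT replicate 1 or 3 also ended the call.

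GSTU1 (AT2G29490) showed small differences with small spread. It stood at 15.9, 14.3 and 16.3 CPM in SR45a-1a-OE, at 13.5, 13.8 and 13.2 CPM in sr45a, and at 9.97, 11.8 and 12.9 CPM in WT. The groups did not overlap and ran in the order SR45a-1a-OE, sr45a, WT. Fitted log2 fold changes were 0.42 (SE 0.12), 0.22 (SE 0.12) and 0.20 (SE 0.12) in SR45a-1a-OE over WT, sr45a over WT and SR45a-1a-OE over sr45a. Its call in SR45a-1a-OE was kept in 9 of 18 alternatives. It ended without SR45a-1a-OE replicate 1 or 3, sr45a replicate 1 or 2, WT replicate 1 or 2, or both replicates 3. It also ended with the 6 libraries compared and with the replicate number as a block.

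GSTU5 (AT2G29450), an auxin-inducible member, showed no separation of the genotypes. It stood at 146.9, 82.1 and 99.0 CPM in SR45a-1a-OE, at 118.6, 116.9 and 92.1 CPM in sr45a, and 109.0, 124.7 and 125.3 CPM in WT, and all groups overlapped. The log2 fold change was −0.13 (SE 0.18) in both altered genotypes over WT. GSTU4 counts per GSTU5 count were 0.0931, 0.0749 and 0.0755 in SR45a-1a-OE, 0.0491, 0.0643 and 0.0735 in sr45a, and 0.0345, 0.0372 and 0.0322 in WT, with every altered library above every WT library.

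GSTU19 (AT1G78380, minus strand of chromosome 1, 29486387–29488007) was by far the most abundant gene of the set; it encodes a tau enzyme that is induced by herbicide safeners and raises tolerance of salt and drought when overexpressed. It stood at 2202, 1674 and 1375 CPM in SR45a-1a-OE, at 1472, 1430 and 1888 CPM in sr45a, and 801.0, 946.2 and 948.8 CPM in WT. Both altered genotypes lay above every WT library and overlapped with each other. GSTU19 gave a log2 fold change of 0.96 (SE 0.18) in SR45a-1a-OE over WT, 0.83 (SE 0.18) in sr45a over WT and 0.13 (SE 0.17) in SR45a-1a-OE over sr45a. The call in SR45a-1a-OE was kept in all 18 alternatives, with values of 0.77 to 1.11. The call in sr45a was kept in 11, with values of 0.69 to 0.90. It ended without any 1 of the sr45a or WT libraries and with the replicate number as a block.

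Scaled to length, GSTU19 reached 1516 ± 312 FPKM (read pairs scaled to gene length and depth) in SR45a-1a-OE, 1447 ± 212 FPKM in sr45a and 807.9 ± 60.01 FPKM in WT (SD, n = 3). It made up 84.0–85.7% of the summed FPKM of the set in SR45a-1a-OE, 80.3–84.2% in sr45a and 75.1–76.5% in WT. Among all genes it held rank 31 to 47 by FPKM in SR45a-1a-OE, 33 to 42 in sr45a and 66 to 75 in WT. The 10 genes together took 0.181–0.280% of all CPM in SR45a-1a-OE, 0.199–0.250% in sr45a and 0.125–0.146% in WT, and most of that is GSTU19. These shares take GSTF2 at its gene value, which was low beside its transcript estimate.

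The deposited transcript estimates did not show the same difference for GSTU19. Its only annotated transcript stood at 1373, 478.6 and 503.1 estimate CPM in SR45a-1a-OE, at 1525, 389.9 and 624.8 in sr45a, and at 410.1, 581.3 and 856.0 in WT. The groups overlapped, and the log2 ratio of means was 0.35 for SR45a-1a-OE over WT and 0.46 for sr45a over WT. The ratio of estimate to gene count ranged between 1.06 and 3.93 over the 9 libraries, whereas it stayed within 3.81 and 4.4 for GSTF6, GSTF7, GSTU4, GSTU5, GSTU24 and GSTU25. Over 3183 single-transcript genes, with libraries pooled, the 5th and 95th percentiles were 0.279 and 4.138, and the GSTU19 ratios lay between them. The transcript table also holds 21725 transcripts with no gene assigned, and their part in the lower ratio was not tested. No exon of another annotated gene overlaps GSTU19, and none of its 75-base windows occurs in another gene.

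**Figure D3:**
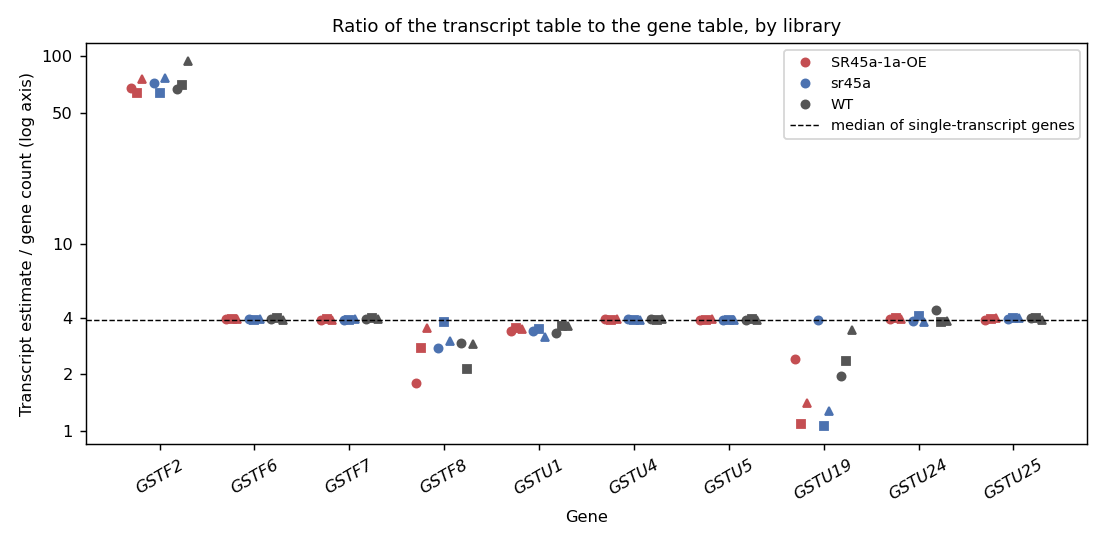
Deposited transcript estimate, summed over the annotated transcripts of a gene, divided by the deposited gene count, on a log axis for each library; circles, squares and triangles are replicates 1, 2 and 3, and the dashed line is the median of single-transcript genes, 3.909. GSTF2 lies between 63.7 and 94.4, GSTU19 spreads over 1.06 to 3.93 and GSTF8 over 1.80 to 3.82, while 6 of the genes stay near the line. The 5th and 95th percentiles of the single-transcript genes are 0.279 and 4.138.

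GSTU24 and GSTU25, 1140 bp apart on the plus strand of chromosome 1 (5869543–5870883 and 5872024–5873124), encode the tau enzymes known for the detoxification of the explosive TNT. They are 79.43% identical in coding sequence. Both were the least abundant of the set. GSTU24 (AT1G17170) stood at 2.04, 1.85 and 1.58 CPM in SR45a-1a-OE, at 2.59, 2.65 and 2.49 CPM in sr45a, and at 0.222, 0.736 and 0.929 CPM in WT. The groups did not overlap and ran in the order sr45a, SR45a-1a-OE, WT. GSTU24 gave a log2 fold change of 1.53 (SE 0.37) in SR45a-1a-OE over WT, 2.03 (SE 0.36) in sr45a over WT and −0.50 (SE 0.32) in SR45a-1a-OE over sr45a.

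GSTU25 (AT1G17180) stood at 2.44, 1.80 and 1.21 CPM in SR45a-1a-OE, at 1.57, 1.43 and 2.39 CPM in sr45a, and at 0.133, 0.368 and 0.604 CPM in WT. Both altered genotypes lay above WT and overlapped with each other. GSTU25 gave a log2 fold change of 2.29 (SE 0.45) in SR45a-1a-OE over WT, 2.28 (SE 0.45) in sr45a over WT and 0.01 (SE 0.37) in SR45a-1a-OE over sr45a. The WT values rest on 5, 16 and 20 counts of GSTU24 and on 3, 8 and 13 counts of GSTU25, so counting error is large beside them. In FPKM with a pseudocount of 1 the log2 fold changes over WT shrank to 0.72 in SR45a-1a-OE and 1.08 in sr45a for GSTU24, and to 1.0 in SR45a-1a-OE and 1.04 in sr45a for GSTU25. The GSTU24 call ended in SR45a-1a-OE without its replicate 1, in sr45a without its replicate 1 or 2, and in both without WT replicate 2. The GSTU25 call in sr45a ended without any 1 of its own replicates, without WT replicate 1 or 2 and without both replicates 3. It also ended with the replicate number as a block.

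Ordered by gene FPKM, GSTU19, GSTF8 and GSTU5 led in that order in each genotype, with ranges that did not touch. GSTF8 averaged 140.1 ± 17.1 FPKM in SR45a-1a-OE, 176.6 ± 14.3 FPKM in sr45a and 139.3 ± 5.78 FPKM in WT. GSTU5 averaged 83.3 ± 22.3 FPKM in SR45a-1a-OE, 87.5 ± 12.9 FPKM in sr45a and 94.9 ± 5.41 FPKM in WT. The other 7 genes averaged 14.83 FPKM or less in every group, GSTF2 among them with the limit given above. By transcript FPKM GSTF2 stood at 81.8, 85.5 and 68.3 in SR45a-1a-OE, 123.6, 131.5 and 116.5 in sr45a, and 63.9, 82.4 and 72.8 in WT. GSTU5 stood at 110.1, 66.8 and 79.1, at 96.8, 98.5 and 73.8, and at 90.3, 101.7 and 98.8 in the same order. GSTF2 then lay above GSTU5 in every sr45a library and below it in every WT library, so its place depends on the reading used.

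The order of these 7 by gene FPKM, with GSTF2 at its low gene value, differed between genotypes. In SR45a-1a-OE GSTU1 (13.7 ± 0.840 FPKM) was followed by GSTF7 and GSTU4, whose ranges overlapped, then by GSTF2, and last by GSTF6, GSTU25 and GSTU24, where each neighbour overlapped with the next. In sr45a GSTF6 (14.8 ± 3.39 FPKM), GSTF7 (13.7 ± 1.65 FPKM) and GSTU1 (12.4 ± 0.546 FPKM) overlapped in that order, GSTF2 and GSTU4 overlapped below them, and GSTU24 and GSTU25 overlapped at the end. In WT GSTU1 (10.5 ± 1.11 FPKM) came before GSTF7, GSTF2 and GSTU4, which overlapped at 3.55 to 4.11 FPKM, then GSTF6 at 1.73 ± 0.400 FPKM, and GSTU24 and GSTU25, which overlapped, at 0.523 ± 0.297 and 0.362 ± 0.225 FPKM. GSTF6 thus held place 8 in SR45a-1a-OE, place 4 in sr45a and place 8 in WT.

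Likeness was measured as the root mean square difference of log2 CPM (prior count 2) over the 9 libraries, each gene centred on its WT mean, among up to 14563 genes of at least 5 CPM. It is a description, and the libraries are shared by all genes. The distance is not scaled to how far a gene itself moves from its WT mean. By the same measure that movement was 0.231 for GSTF8, 0.263 for GSTU5 and 0.297 for GSTU1, against 1.803 for GSTF6 and 1.811 for GSTU25. Distances are therefore not compared between members. GSTF7 was nearest to CYP81D11, a cytochrome P450 gene of the response to cis-jasmone and xenobiotics (0.299), then to AT2G21640, annotated as a marker of the oxidative stress response (0.451), and AT4G39675 (0.463). GSTU24 was nearest to GSTF7 (0.455), AT4G39675 (0.501) and CYP81D11 (0.511). GSTU24 and GSTU25 themselves averaged under 5 CPM, so neither could be ranked as near to the other or to any member. Some ranked genes, such as GSTF6 and CYP81D11, lay under 5 CPM in every WT library, so other groups carried them past that level. GSTF6 was nearest to AT5G36790 (0.595), whose count is uncertain because of a near-identical copy, to the isocitrate lyase gene ICL (0.717), itself 1 of the seed and germination markers, and to CYP81D11 (0.822), with GSTF7 in place 4 (0.873).

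GSTU25 was nearest to PGL5 (0.339), a 6-phosphogluconolactonase gene, to AT4G33070 (0.526), a pyruvate decarboxylase gene, and to AT2G18193 (0.531). GSTU19 was nearest to AT4G21580 (0.159), a zinc-binding oxidoreductase gene, the ferritin gene FER2 (0.162) and AT4G31320 (0.170). GSTU4 had AT5G38895 (0.174), AT4G21580 (0.187) and AT4G25225 (0.242) as nearest genes and GSTU19 in place 6 (0.253). The genes nearest to GSTF2, GSTF8, GSTU1 and GSTU5 lay within 0.037 and 0.190 of them and included no GST: AT1G52100, AT1G77750 and AT1G67750 for GSTF2, GAPC1, KCS16 and PBG1 for GSTF8, ETFBETA, AT3G12260 and AT4G24930 for GSTU1, and AT4G30470, AT1G72510 and AT3G52210 for GSTU5.

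The other phi and tau genes were set beside the 10. They remained after the 10 had been chosen with these contrasts known, so nothing is read from a gap between the 2 lists. Of the 31 listed, 30 were in the table and 21 were tested. In SR45a-1a-OE against WT 1 rose and none fell, with a median log2 fold change of 0.34, beside 6.76% of all tested genes called higher and 8.59% lower (15.3% in either direction). The gene was ERD9 (GSTU17), an early dehydration-responsive gene, at 23.2, 19.2 and 13.3 CPM in SR45a-1a-OE, against 9.53, 13.7 and 12.3 CPM in WT (log2 fold change 0.65, SE 0.19, edgeR adjusted p = 0.0404). Its groups overlapped. ERD9 lies next to GSTU18 on the same strand, and their annotated ends overlap. The call was kept in 7 of 18 alternatives (adjusted p 0.00442 to 0.16). It ended without replicate 1 or 2 of SR45a-1a-OE or of sr45a, and without any 1 WT library. It also ended in a fit of the 6 libraries compared, in both limma fits and with the replicate number as a block. When both replicates 3 were left out, 7 of the genes passed: ATGSTF13, GSTU6, GSTU9, ERD9 and GSTU26 were higher in SR45a-1a-OE than in WT, and GSTU20 and GSTU27 were lower. In that fit 10.7% of all tested genes were called higher and 11.7% lower (22.3% in either direction).

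In sr45a against WT edgeR called 0 of the 21, and so did DESeq2 and limma; 5 had an unadjusted edgeR p under 0.05, all higher, and the median was 0.09. The sr45a count stayed at 0 without both replicates 3. In SR45a-1a-OE against sr45a 3 rose and 1 fell, with a median of 0.27, beside 2.81% of all tested genes called higher and 4.45% lower (7.26% in either direction). In the fit without both replicates 3 ERD9 and GSTU26 were higher and GSTU20 lower. GSTU26 stood at 13.9, 11.8 and 10.9 CPM in SR45a-1a-OE, against 7.68, 7.78 and 7.96 CPM in sr45a (0.64, SE 0.13, edgeR adjusted p = 0.0156). GSTU26 lies downstream of GSTU25 on the same strand, and its WT values of 8.82, 9.01 and 10.08 CPM lay between the altered genotypes.

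GSTU18 stood at 48.3, 39.0 and 49.0 CPM in SR45a-1a-OE, against 34.7, 32.3 and 35.8 CPM in sr45a (0.41, SE 0.11, edgeR adjusted p = 0.0421). GSTU20, which neighbours GSTU19 and is known to interact with the jasmonate-conjugating enzyme JAR1, was lower, at 28.5, 28.3 and 32.5 CPM in SR45a-1a-OE, against 41.5, 44.0 and 35.0 CPM in sr45a (−0.43, SE 0.11, edgeR adjusted p = 0.0334). GSTU3, between GSTU4 and GSTU2, rose at low level, with 1.29, 3.61 and 3.62 CPM in SR45a-1a-OE, against 1.11, 0.371 and 0.249 CPM in sr45a (2.27, SE 0.56, edgeR adjusted p = 0.0339). GSTU3 is named although it averaged under 5 CPM. The GSTU26 call ended without SR45a-1a-OE replicate 1 or sr45a replicate 1 or 2, and that of GSTU3 without SR45a-1a-OE replicate 2, sr45a replicate 2 or 3, WT replicate 2 or both replicates 3. GSTU18 lost its call without any 1 library other than SR45a-1a-OE replicate 2 or sr45a replicate 3, and without both replicates 3. GSTU20 lost it without SR45a-1a-OE replicate 1 or 2, sr45a replicate 1 or 2, or WT replicate 2 or 3. The calls of GSTU3, GSTU18 and GSTU20 also ended with the 6 libraries compared and with the replicate number as a block. That of GSTU18 ended in both limma fits as well.

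**Figure D4:**
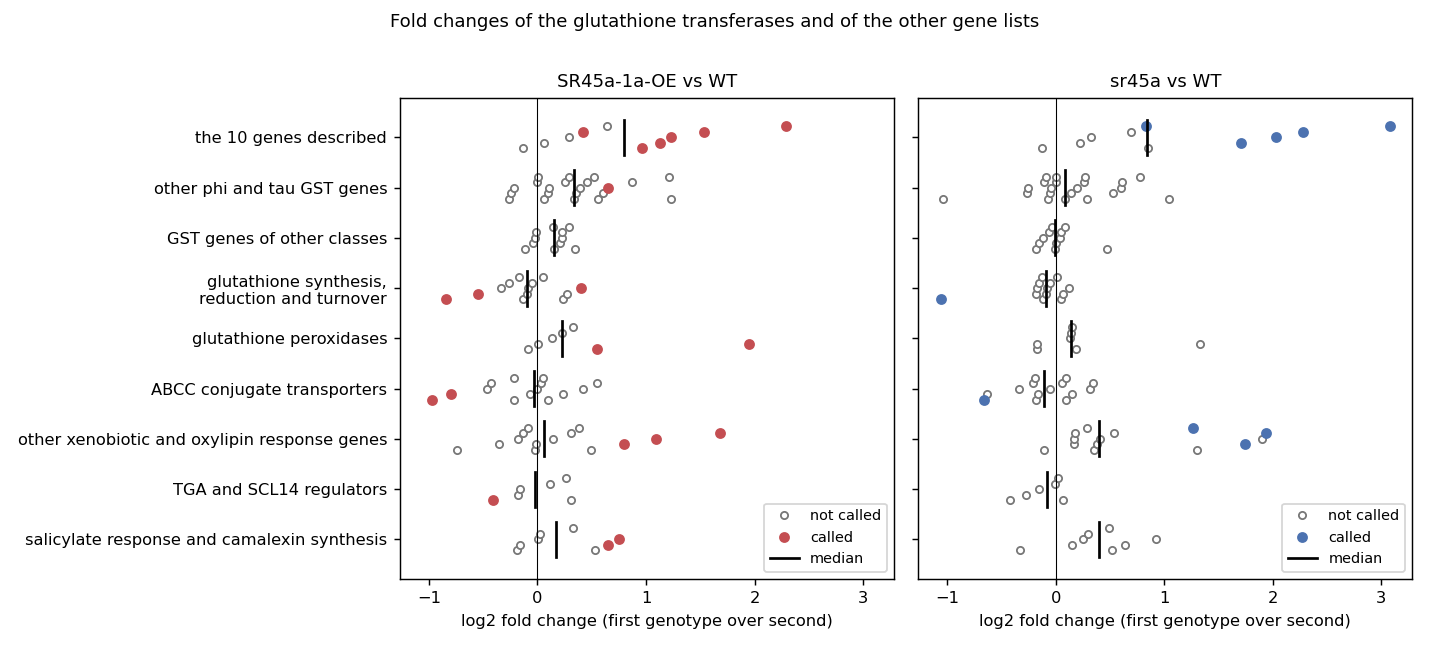
Fitted log2 fold changes of every tested gene in the set of 10 and in the 8 other lists, for SR45a-1a-OE over WT (left) and sr45a over WT (right); filled points are called genes and the vertical lines are list medians. The set of 10 has medians of 0.80 and 0.84, and the other phi and tau genes of 0.34 and 0.09. The 10 were chosen with these contrasts known, so nothing is read from that gap.

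GST genes of other classes, such as zeta, theta, lambda and dehydroascorbate reductase, were not called by edgeR on all 9 libraries. It called 0 of 11 tested genes in each comparison; 3, 1 and 3 had an unadjusted p under 0.05 in SR45a-1a-OE over WT, sr45a over WT and SR45a-1a-OE over sr45a, all higher, and DESeq2 called 0, 1 and 1. Leaving out both replicates 3, edgeR called DHAR2, a dehydroascorbate reductase gene, higher in SR45a-1a-OE than in WT, and AT1G77290 higher in SR45a-1a-OE than in sr45a. Their median log2 fold changes were 0.15, −0.01 and 0.13. GSTL3 of the lambda class, the most abundant, averaged 209.9 ± 18.5 CPM in SR45a-1a-OE, 168.0 ± 3.65 CPM in sr45a and 190.8 ± 11.3 CPM in WT, and DHAR1, a paralog of DHAR2, 124.5 ± 8.25, 123.4 ± 11.5 and 134.5 ± 11.2 CPM in the same order (SD, n = 3).

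Genes that make, reduce and break down glutathione were tested next. Of 13 tested, 1 rose and 2 fell in SR45a-1a-OE against WT (median −0.10), 1 fell in sr45a against WT (median −0.09) and 1 rose in SR45a-1a-OE against sr45a (median 0.00). Of all tested genes, 6.76% were called higher and 8.59% lower in SR45a-1a-OE against WT, 0.761% lower in sr45a against WT, and 2.81% higher in SR45a-1a-OE against sr45a. With both replicates 3 left out, GR1, GR and AT4G31290 were called higher and AT5G26220 and CAD1 lower in SR45a-1a-OE against WT, and the first 3 higher and CAD1 lower in SR45a-1a-OE against sr45a. AT5G26220, a gamma-glutamyl cyclotransferase gene whose product degrades glutathione, fell in both, and stood at 6.07, 7.22 and 6.78 CPM in SR45a-1a-OE, at 7.12, 4.18 and 5.92 CPM in sr45a, and 10.2, 11.8 and 14.0 CPM in WT. Its log2 fold change was −0.84 (SE 0.19, edgeR adjusted p = 0.0141) in SR45a-1a-OE over WT and −1.06 (SE 0.19, edgeR adjusted p = 0.0182) in sr45a over WT.

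GR, the organellar glutathione reductase gene AT3G54660, rose in SR45a-1a-OE to 198.3 ± 19.8 CPM against 150.0 ± 5.17 CPM in WT (0.40, SE 0.12, edgeR adjusted p = 0.0453). CAD1, the phytochelatin synthase gene, fell to 11.2 ± 1.13 CPM in SR45a-1a-OE against 16.4 ± 0.828 CPM in WT (−0.55, SE 0.12, edgeR adjusted p = 0.0119). AT4G31290, another gamma-glutamyl cyclotransferase gene, stood at 108.4 ± 11.2 CPM in SR45a-1a-OE, against 80.8 ± 7.07 CPM in sr45a (0.42, SE 0.11, edgeR adjusted p = 0.0366). Leaving out SR45a-1a-OE replicate 1 ended each call of this list in that genotype; the AT5G26220 calls also ended without WT replicate 2 or 3 and, in sr45a, without its replicate 2 or 3. The GR call ended as well without SR45a-1a-OE replicate 2, sr45a replicate 1 or any 1 WT library. The AT4G31290 call ended without any 1 library other than SR45a-1a-OE replicate 3. Both also ended with the replicate number as a block. The GR call ended in both limma fits, and the AT4G31290 call with the 6 libraries compared.

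Of 7 glutathione peroxidase genes, which encode enzymes that remove lipid and hydrogen peroxides, 2 rose in SR45a-1a-OE against WT and none fell (median 0.23; 6.76% of all tested genes were called higher). GPX1 reached 505.2 ± 74.6 CPM in SR45a-1a-OE against 344.4 ± 15.0 CPM in WT (0.55, SE 0.12, edgeR adjusted p = 0.0132), and the call ended without SR45a-1a-OE replicate 1 or WT replicate 1 or 2. GPX7 stood at 4.97, 4.77 and 2.32 CPM in SR45a-1a-OE, against 0.842, 1.01 and 1.25 CPM in WT (1.95, SE 0.33, edgeR adjusted p = 0.00525), and was called in all 18 alternatives. In sr45a against WT edgeR called 0 of 7 (1 at an unadjusted p under 0.05, 1 by DESeq2); GPX1 was at 375.9 ± 31.3 CPM in sr45a and GPX2 at 177.8 ± 20.9 CPM in sr45a against 156.1 ± 21.4 CPM in WT. SR45a-1a-OE against sr45a gave 0 calls by edgeR as well (1 unadjusted, 1 by DESeq2), and GPX2 stood at 183.1 ± 51.1 CPM in SR45a-1a-OE. Leaving out both replicates 3 gave GPX1, GPX6 and GPX7 higher in SR45a-1a-OE than in WT, GPX1 and GPX7 higher in SR45a-1a-OE than in sr45a, and still 0 calls in sr45a against WT.

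Of 14 tested ABCC transporter genes, edgeR on all 9 libraries called 2 lower in SR45a-1a-OE against WT (median −0.04; 8.59% of all tested genes), 1 lower in sr45a against WT (median −0.11; 0.761%), and 1 higher and 1 lower in SR45a-1a-OE against sr45a (median −0.07; 2.81% and 4.45%). Against WT it called none higher, but with both replicates 3 left out ABCC7 was called higher in SR45a-1a-OE than in WT beside the 2 lower genes, and DESeq2 called 3 genes there. In that smaller edgeR fit 10.7% of all tested genes were called higher and 11.7% lower. ABCC8 stood at 12.1, 12.2 and 15.0 CPM in SR45a-1a-OE, at 16.7, 13.7 and 12.8 CPM in sr45a, and at 23.3, 24.0 and 21.1 CPM in WT. Its log2 fold change was −0.80 (SE 0.13, edgeR adjusted p = 0.00486) in SR45a-1a-OE over WT and −0.66 (SE 0.13, edgeR adjusted p = 0.0285) in sr45a over WT. The first call was kept in all 18 alternatives. The other ended without sr45a replicate 2 or 3 or any 1 WT library, in both limma fits and with the replicate number as a block.

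ABCC9 was low, at 1.15 ± 0.369 CPM in SR45a-1a-OE, 2.43 ± 0.186 CPM in sr45a and 2.27 ± 0.175 CPM in WT. It fell in SR45a-1a-OE against WT (−0.97, SE 0.25, edgeR adjusted p = 0.0254) and against sr45a (−1.08, SE 0.25, edgeR adjusted p = 0.0287), and both calls ended without SR45a-1a-OE replicate 1 or 2 or WT replicate 2. The call against WT also ended without WT replicate 1 or 3, and the call against sr45a without sr45a replicate 1 or 2. Each ended in both limma fits, and the call against sr45a also with the 6 libraries compared and with the replicate number as a block. ABCC7 reached 4.85 ± 0.792 CPM in SR45a-1a-OE against 2.13 ± 0.0845 CPM in sr45a (1.18, SE 0.20, edgeR adjusted p = 0.00706) and was called in all 18 alternatives. Over WT, where it stood at 3.31 ± 0.502 CPM, its log2 fold change in SR45a-1a-OE was 0.55 (SE 0.19, edgeR adjusted p = 0.0676).

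Of 14 tested genes of the xenobiotic and oxylipin response outside the GST families, 3 rose in both altered genotypes against WT and none fell, beside 6.76% of all tested genes called higher in SR45a-1a-OE and 0.861% in sr45a. The median was 0.06 in SR45a-1a-OE and 0.40 in sr45a. CYP81D8, a P450 gene of the stress response, stood at 2.69, 3.75 and 1.76 CPM in SR45a-1a-OE, at 1.85, 3.55 and 3.19 CPM in sr45a, and 1.06, 0.827 and 0.650 CPM in WT. The log2 fold change was 1.68 (SE 0.36, edgeR adjusted p = 0.0114) in SR45a-1a-OE over WT and 1.74 (SE 0.36, edgeR adjusted p = 0.0321) in sr45a over WT.

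CYP81D11 stood at 6.91, 5.64 and 3.39 CPM in SR45a-1a-OE, at 8.05, 7.25 and 13.5 CPM in sr45a, and 1.86, 2.34 and 3.30 CPM in WT. Its log2 fold change was 1.09 (SE 0.32, edgeR adjusted p = 0.0419) in SR45a-1a-OE over WT and 1.94 (SE 0.32, edgeR adjusted p = 0.0107) in sr45a over WT. DTX1, a multidrug efflux carrier gene, stood at 5.32, 8.10 and 6.36 CPM in SR45a-1a-OE, at 7.86, 9.74 and 9.85 CPM in sr45a, and 3.94, 3.77 and 3.67 CPM in WT. DTX1 gave 0.80 (SE 0.18, edgeR adjusted p = 0.0143) in SR45a-1a-OE over WT and 1.27 (SE 0.18, edgeR adjusted p = 0.00483) in sr45a over WT. None of the 3 genes overlapped with WT; of all tested genes, 16.9% were higher without overlap in SR45a-1a-OE and 11.3% in sr45a.

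AT2G04050, another efflux carrier gene of the same family as DTX1, was the 1 gene of this list called in SR45a-1a-OE against sr45a. It was lower, at 0.338 ± 0.225 CPM in SR45a-1a-OE against 1.39 ± 0.172 CPM in sr45a (−2.04, SE 0.40, edgeR adjusted p = 0.0144), and the list median was −0.32; 4.45% of all tested genes were called lower. When both replicates 3 were left out, UGT73B3 was called higher in SR45a-1a-OE than in WT beside the 3 genes above, and OPR1 lower in SR45a-1a-OE than in sr45a beside AT2G04050. CYP81D8 in SR45a-1a-OE and DTX1 in sr45a were called in all 18 alternatives. CYP81D8 lost its call in sr45a without SR45a-1a-OE replicate 1, sr45a replicate 2 or 3 or any 1 WT library. CYP81D11 lost it in both genotypes without WT replicate 1 or 2, and in SR45a-1a-OE also without its replicate 1 or 2 or sr45a replicate 1. DTX1 lost it in SR45a-1a-OE without WT replicate 2, and AT2G04050 without sr45a replicate 1 or 2. With the replicate number as a block CYP81D8 lost its call in sr45a and CYP81D11 its call in SR45a-1a-OE. Limma on FPKM plus 1 ended both of these, and limma on FPKM plus 0.1 that of CYP81D11.

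The TGA factors and their partner SCL14 act together on TGACG elements of detoxification genes. Of 6 tested regulators 1 fell and none rose in SR45a-1a-OE against WT, where 8.59% of all tested genes fell. TGA3 fell in SR45a-1a-OE, at 20.8 ± 0.593 CPM against 27.5 ± 1.40 CPM in WT (−0.41, SE 0.10, edgeR adjusted p = 0.0194), and stood at 20.5 ± 1.81 CPM in sr45a. The call ended without SR45a-1a-OE replicate 1 or 2 or any 1 WT library, and with the replicate number as a block. edgeR called 0 in sr45a against WT (2 at an unadjusted p under 0.05, 1 by DESeq2) and 0 in SR45a-1a-OE against sr45a (1 unadjusted, 0 by DESeq2). In SR45a-1a-OE against sr45a SCL14 was called higher once both replicates 3 were left out. SCL14 was at 42.4 ± 2.36 CPM in SR45a-1a-OE, 35.9 ± 8.07 CPM in sr45a and 35.5 ± 1.83 CPM in WT, and NPR1, the salicylate receptor gene, at 34.3 ± 3.86, 31.2 ± 3.09 and 31.4 ± 2.27 CPM in the same order. List medians were −0.02, −0.08 and 0.12.

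Of 8 tested genes of the salicylate response and of camalexin synthesis, 2 rose in SR45a-1a-OE against WT and none fell (median 0.18; 6.76% of all tested genes were called higher). EDS5, a chloroplast transporter gene of salicylate synthesis, reached 16.9, 23.3 and 11.9 CPM in SR45a-1a-OE against 10.5, 11.4 and 11.2 CPM in WT (0.65, SE 0.19, edgeR adjusted p = 0.0430). CYP79B3, a P450 gene at the entry to indole glucosinolates and camalexin, reached 32.5, 43.8 and 22.2 CPM in SR45a-1a-OE against 19.8, 17.1 and 21.6 CPM in WT (0.75, SE 0.21, edgeR adjusted p = 0.0318). Both calls ended without SR45a-1a-OE replicate 1 or 2 or any 1 WT library, and that of EDS5 also without sr45a replicate 1 or 2. Both also ended in both limma fits and with the replicate number as a block, and that of EDS5 with the 6 libraries compared. In sr45a, where GSTF6 was highest, edgeR called 0 of the 8 (4 at an unadjusted p under 0.05, 0 by DESeq2), with a median of 0.40. Without overlap 4 of the 8 were higher in sr45a than in WT and 1 was lower (11.3% and 12.8% of all tested genes). The list holds 12 genes, and CYP71A12 and CYP71A13, at 0 to 3 counts per library, were among those not tested. SR45a-1a-OE against sr45a gave 0 calls as well (1 unadjusted, 0 by DESeq2), with a median of −0.06. That last comparison gave 3 calls with both replicates 3 left out, EDS5 and CYP79B3 higher and WRKY70 lower in SR45a-1a-OE. DMR6, a gene whose product hydroxylates salicylate, stood at 64.8 ± 2.10 CPM in SR45a-1a-OE, 57.4 ± 3.28 CPM in sr45a and 72.2 ± 11.03 CPM in WT. CYP79B2, the paralog of CYP79B3, stood at 29.1 ± 1.499 CPM in sr45a and 18.7 ± 0.900 CPM in WT, and CYP79B3 at 27.4 ± 4.17 CPM in sr45a.

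Markers of green tissue and roots were set beside these lists. Of 9 green tissue markers 5 rose in SR45a-1a-OE against WT and none fell (6.76% and 8.59% of all tested genes), 1 rose in SR45a-1a-OE against sr45a (2.81%), and their summed level was 26030–28180 CPM in SR45a-1a-OE, 22590–26770 CPM in sr45a and 20050–22160 CPM in WT. edgeR called 0 of 9 in sr45a against WT (2 at an unadjusted p under 0.05, 1 by DESeq2). With both replicates 3 left out, 5 rose and LHCB2.1 fell in SR45a-1a-OE against WT, and 4 rose against sr45a. Root markers summed to 228.7–389.7 CPM in SR45a-1a-OE, 226.4–264.6 CPM in sr45a and 311.0–342.1 CPM in WT, with 2 called higher and 2 lower of 9 tested in SR45a-1a-OE against WT, 2 lower in sr45a against WT (0.761% of all tested genes), and 2 higher in SR45a-1a-OE against sr45a. Leaving out both replicates 3 made these counts 5 higher and 2 lower, 3 lower, and 3 higher and 1 lower. None of these markers was at 0 in any group. Without WT replicate 2 none of the 5 green tissue calls held. Of the root calls against WT, that of PHT1;1 in SR45a-1a-OE was kept in all 18 alternatives, and the others ended when single libraries were left out. Their part in the levels of the transferases was not tested.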

How the data were processed

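RNA of 9 libraries was sequenced by the submitters as 150-bp paired reads after Trizol extraction, and reads were trimmed with fastp to a minimum length of 36 bp, per the labels' protocols. The sources used here name no aligner, counting program or genome build. The authors deposited a gene table with raw counts and FPKM values per gene, and a transcript table with estimated counts per transcript, whose totals (69441431 to 84634157) exceed those of the gene counts (18036195 to 21864604). The transcript estimates were used only as a second reading of the levels. Gene positions and sequences are from RefSeq's copy of TAIR10.1, read with Biopython 1.88.

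The counts were fitted with edgeR 4.0.16 in R 4.3.3 (TMM scaling, filterByExpr with a minimum count of 10 and a minimum total of 15, a quasi-likelihood fit of all 9 libraries, Benjamini-Hochberg adjustment over 20103 genes). The procedure was tested on simulated data. Alternatives were DESeq2 size factors, DESeq2 1.42.0, a 1 CPM minimum over 3 libraries, no filter, the 6 libraries compared, a replicate block, limma 3.58.1 on the log2 of FPKM plus 1 or 0.1, each library left out, and both replicates 3 of the altered genotypes left out. Replicate numbers did not pair the samples: correlations of same-numbered libraries' deviations ran between −0.331 and 0.186. Python 3.11.15 with matplotlib 3.10.9 and pandas 2.3.3 drew the plots and tables.

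The 10 genes and the 12 lists were chosen with earlier results of these data known. Named were all 10 genes in every library. Of the other phi and tau genes, the called ones averaging at least 5 CPM in either group were named. From each pathway list and comparison, the 3 called genes with the smallest p were named, or, with none called, the 2 with the highest mean CPM. The 3 genes nearest to each member were named, among tested genes of at least 5 CPM. Protein sequences were not used here. Of the 10 promoter windows scanned, 4 are printed; the other 6 are not reported here.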

Additional observations from a re-analysis of the deposited data

How the results depend on the processing

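Each result was recomputed under 18 alternatives. Of the 540 recomputed fold changes of the 10 genes, 532 moved by less than 1 SD between replicates, 8 moved by more, 7 of them in FPKM plus 1, and 0 called values changed sign. The number of the 10 genes called ranged between 2 and 6 in SR45a-1a-OE against WT when single libraries were left out, between 1 and 6 in sr45a against WT, and stayed at 1 in SR45a-1a-OE against sr45a. With the replicate number as a block, which the samples' deviations do not justify, 5, 4 and 1 were called in the same order. For the other phi and tau genes, SR45a-1a-OE against WT gave 2 calls with no filter, with a filter of 1 CPM and with DESeq2, 0 with the 6 libraries compared and 0 with the replicate block, 7 without both replicates 3 of the altered genotypes and 0 to 4 without single libraries, in place of 1. SR45a-1a-OE against sr45a gave 1 with the 6 libraries compared and 1 with the replicate block, and 0 to 4 without single libraries, in place of 4. sr45a against WT gave 0 throughout. For the fits without single libraries no share over all tested genes is given, so nothing is read from these changes in count. Causes were not tested. The alternatives for transcript usage (a 5% minimum share and limma's diffSplice) were not run, since no gene of the set had 2 tested transcripts in the fit of all 9 libraries. GSTU24 and GSTU25, with 3 to 20 counts per WT library, are limited by depth.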
